A study of Mus musculus with 18 samples.

Results

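The prostaglandin synthesis enzymes examined here are 7 genes of the 21018 listed in at least 1 of the gene count tables of this series, namely the cyclooxygenase genes Ptgs1 and Ptgs2, the prostaglandin E synthase genes Ptges, Ptges2 and Ptges3, the prostaglandin D synthase gene Ptgds and the gene of the degrading enzyme, Hpgd. They were found by gene symbol as enzymes of 1 pathway, and the set was chosen by pathway with the differences between IL-1β and saline in these libraries already known. Those differences are therefore given as a description, with no p-value for a member. All 7 members are listed in the Pico table, and 6 in each of the V4 and TruSeq tables, where Ptgs2 is not listed.

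The study asked whether a kit for very small amounts of RNA gives the same differential expression as established kits. Liver RNA came from 12-week-old male C57/B6J mice whose livers were perfused with PBS, 4 hours after an intraperitoneal injection of either 20 μg/kg of IL-1β (mice I9579, I9582 and I9583) or saline (mice U9574, U9575 and U9576). No mouse carried a transgene in the labels, and each value is for whole liver. RNA of each of the 6 mice entered 3 kits, which gives 18 libraries in 6 groups of 3. Pico is a stranded kit for total RNA with ribosomal depletion (1.7 to 2.6 ng of RNA), V4 an unstranded poly(A) kit (0.8 to 1.3 ng), and TruSeq a stranded poly(A) kit (200 ng). TruSeq was also sequenced with shorter reads and on another instrument than Pico and V4. The authors credit the TruSeq experiment to an earlier study. For TruSeq against either, kit, RNA amount, read length, instrument and preparation in another study therefore cannot be told apart.

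Prostaglandins are made from arachidonic acid that phospholipases free from membranes. Cyclooxygenases turn it into the unstable intermediate prostaglandin H2, and terminal synthases turn that into prostaglandin E2, D2 and others. 15-Hydroxyprostaglandin dehydrogenase, the product of Hpgd, starts the breakdown of prostaglandin E2 and its relatives. In many tissues Ptgs2 and Ptges are the inducible genes of the pathway and Ptgs1, Ptges2 and Ptges3 are expressed without a stimulus. Interleukin-1 is a classical inducer of Ptgs2 and Ptges in other cells, and prostaglandin E2 is the mediator of fever.

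Across the members, Hpgd was lower after IL-1β in all 3 kits, Ptges2 was higher in V4 and TruSeq, and Ptgs1 was lower in TruSeq. Called here means an adjusted p of at most 0.05 in limma-voom over all genes of a kit. Of the members, 0 were called higher with Pico and 1 each with V4 and TruSeq, where 6.78%, 3.6% and 12.3% of all genes were called higher. The members called lower numbered 1, 1 and 2, in the same order of kits, against 10.8%, 7.41% and 21.8% of all genes. Nothing is read from these shares, since the set was chosen with the same contrast in view.

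The promoters of the members that moved in opposite directions, Ptges2 and Hpgd, and of Ptgs2, the inducible cyclooxygenase gene with 1 count in Pico and no row in the other tables, are printed here so that their sequence can be read beside the counts. Each window runs from 250 bases before to 50 bases after the RefSeq start, 5′ to 3′ on the gene's strand, and each was placed on mm9 by its 1 exact match on its chromosome. Capitals mark matches on either strand to 1 of the searched motifs, which were the TATA box as TATAAA, the CCAAT box, the GC box as GGGCGG, the core of the cAMP response element as TGACG, the AP-1 site as TGANTCA, the C/EBP site as TTNCNNNAA and the kappa-B site by its consensus. No capitals overlap between motifs in these windows.
Ptges2, chr2:32251160-32251459, plus strand: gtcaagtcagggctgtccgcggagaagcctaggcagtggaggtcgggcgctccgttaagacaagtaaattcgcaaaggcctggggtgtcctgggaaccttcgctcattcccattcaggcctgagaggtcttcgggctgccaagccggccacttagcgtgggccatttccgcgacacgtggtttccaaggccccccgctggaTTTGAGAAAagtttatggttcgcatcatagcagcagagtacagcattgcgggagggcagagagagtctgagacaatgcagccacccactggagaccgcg
Hpgd, chr8:58773099-58773398, plus strand: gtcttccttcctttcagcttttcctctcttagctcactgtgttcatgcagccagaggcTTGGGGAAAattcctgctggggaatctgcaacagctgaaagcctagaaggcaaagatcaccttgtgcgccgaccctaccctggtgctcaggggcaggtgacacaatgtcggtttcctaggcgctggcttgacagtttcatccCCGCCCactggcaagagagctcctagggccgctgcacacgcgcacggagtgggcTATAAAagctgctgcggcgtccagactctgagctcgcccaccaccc
Ptgs2, chr1:151946911-151947210, plus strand: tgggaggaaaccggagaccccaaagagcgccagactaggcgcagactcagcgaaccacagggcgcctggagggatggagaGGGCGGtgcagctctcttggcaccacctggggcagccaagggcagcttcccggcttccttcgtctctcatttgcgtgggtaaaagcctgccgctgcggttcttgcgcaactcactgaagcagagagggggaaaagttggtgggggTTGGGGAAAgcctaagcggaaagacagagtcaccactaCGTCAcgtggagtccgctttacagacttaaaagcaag
The Ptges2 window held 1 match, to TTNCNNNAA on the minus strand, at −49 to −41 from the start. The Hpgd window held TATAAA on the plus strand at 5 to 10 and, both on the minus strand, GGGCGG at −50 to −45 and TTNCNNNAA at −192 to −184. In the Ptgs2 window, GGGCGG stood on the plus strand at −170 to −165, and TTNCNNNAA at −25 to −17 and TGACG at 14 to 18 stood on the minus strand. Gene positions given here are those of GENCODE, whose start of Ptgs2 lies downstream of this whole window, so its last bases are inside the gene by the RefSeq start only. The kappa-B motif matched in the windows of Ptges3 and Ptgds and in no window printed here. Of 32851 promoter windows of the same length, 36.6% held TTNCNNNAA, 35.7% GGGCGG, 20.8% TGACG, 13.6% TATAAA, 37.4% CCAAT, 7.81% TGANTCA and 8.46% the kappa-B motif, so these matches are common. The GC content was 58.7% for Ptges2, 58% for Hpgd and 59.3% for Ptgs2, against 73.7% for Ptges3, whose 46 CpG were more than in 98.4% of windows.

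The depth behind these values was 4024632 to 4134070 counts per library for Pico, 12013453 to 12352473 for V4 and 12348864 to 12858237 for TruSeq, so a gene at the same level gave fewer counts in Pico. Of 10 acute-phase genes, which the liver makes in response to IL-1β, all were called higher in Pico and TruSeq and 9 in V4. The liver label was met by the hepatocyte markers, which summed to 37900 to 102000 CPM. Of 41 markers of 8 cell types, those called in all 3 kits beside the Kupffer cell and neutrophil genes named below were Alb and Cps1 (lower) and Tat (higher) for hepatocytes, Kdr and Clec4g (lower) for sinusoidal endothelium and Lrat (lower) for stellate cells. With library totals the median gene was at −0.12, −0.22 and −0.17 on the log2 scale in Pico, V4 and TruSeq, and TMM factors moved that median up by 0.13, 0.17 and 0.16 and the share of calls that were higher from 38.6% to 52.9%, 32.7% to 49.7% and 36% to 50.9%. In whole liver, fewer cells of a type and less RNA per cell cannot be told apart.

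**Figure D1:**
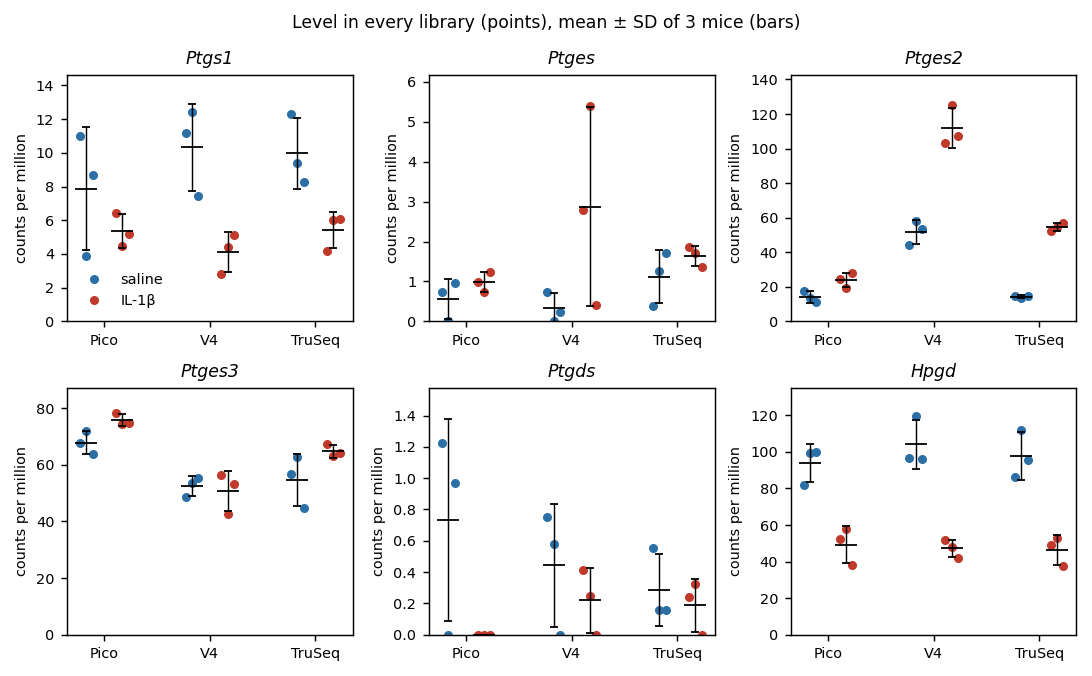
Level of 6 members in CPM, the counts scaled to the library total (y axes, each starting at 0) for saline and IL-1β libraries of the 3 kits (x axes), where points are libraries and bars the mean ± SD of 3 mice. Hpgd lies lower after IL-1β and Ptges2 higher, without overlap in any of the 3 kits, while Ptges and Ptgds rest on a few reads.

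Among the cyclooxygenases, Ptgs1 encodes the enzyme that most tissues make without a stimulus and that platelets use for thromboxane. The gene (ENSMUSG00000047250) lies on chr2:36085946-36107792 of mm9, on the plus strand. In TruSeq it had 52, 74 and 75 counts in the IL-1β mice I9579, I9582 and I9583, and 156, 120 and 106 in the saline mice U9574, U9575 and U9576. Every IL-1β library was below every saline library. The mean was 5.41 ± 1.06 CPM (SD, n = 3) after IL-1β and 9.98 ± 2.11 after saline, a log2 fold change of −0.88 (SE 0.21) that was called. V4 gave 34, 53 and 62 counts after IL-1β and 134, 150 and 92 after saline. These ranges did not overlap either, but the log2 fold change of −1.33 (SE 0.40) was not called. In Pico the counts were 26, 18 and 21 after IL-1β and 45, 16 and 36 after saline. The mouse U9575 was the lowest of all Pico libraries, the groups overlapped, and the log2 fold change was −0.43 (SE 0.45).

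The TruSeq call of Ptgs1 was lost without mouse I9579, where the log2 fold change was −0.70, and when every library was thinned to the smallest total, at −0.80. The V4 value was called without mouse U9576, at −1.55, by DESeq2, at −1.16, and with genes of low counts left out, at −1.33. The Kupffer cell markers, which mark the resident macrophages of the liver, summed to less after IL-1β in every library. Their summed level in TruSeq was 48.9 to 69.6 CPM after IL-1β and 96.4 to 161 after saline, with 4 of 6 markers called lower and 1, Marco, called higher (log2 1.30). In V4 the sums were 45.9 to 68.8 and 84.7 to 149 (2 of 6 lower), and in Pico 70.9 to 105 and 126 to 164 (3 of 6 lower). Clec4f and Vsig4 were called lower in all 3 kits. The sinusoidal endothelial markers were at 58.4 to 80.5 CPM after IL-1β and 135 to 154 after saline in TruSeq, 40.1 to 58.3 and 73.8 to 110 in V4, and 163 to 195 and 275 to 300 in Pico. Of these 5 markers, 4 were called lower in TruSeq, 2 in V4 and 3 in Pico, while Lyve1 was called higher in TruSeq (log2 0.94) and Pico (1.65) and stood at 0.90 in V4. The stellate cell and hepatocyte sums were also lower after IL-1β, without overlap in any kit, with Tat among the hepatocyte markers higher. In TruSeq the stellate cell sums were 138 to 182 CPM after IL-1β and 253 to 288 after saline. The hepatocyte sums there were 62300 to 68700 and 84300 to 102000. Neutrophil sums, given below, were higher. The part of any of these cells in the Ptgs1 values was not tested. Platelet markers summed to 1.49 to 6.92 CPM over all libraries.

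Ptgs2 encodes the inducible cyclooxygenase. The gene (ENSMUSG00000032487) lies on chr1:151947254-151955140 of mm9, on the plus strand, with 4143 bases of exon. It had 1 count in 6 Pico libraries, in mouse I9583. A count of 0 allows a level of up to 0.726 to 0.745 CPM in these libraries (3 counts, counting error only), so no change can be read at this depth. In V4 and TruSeq the gene is not listed, and these tables list only genes with at least 1 count in 1 of their libraries. No fold change is given for it.

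Of the prostaglandin E synthases, Ptges encodes the microsomal enzyme that is induced together with Ptgs2 in inflammation elsewhere. The gene (ENSMUSG00000050737) spans chr2:30744991-30785383 of mm9 on the minus strand, and 751 bases of its transcript aligned to 1 other locus at 98.7% identity. V4 gave 34, 65 and 5 counts after IL-1β and 9, 0 and 3 after saline. The IL-1β mice I9579 and I9582 were far above the saline mice and mouse I9583 was among them. The same mouse I9583 gave 17 counts in TruSeq, where its group had 23, 21 and 17 and the saline mice 5, 16 and 22. In Pico the counts were 4, 3 and 5 against 3, 0 and 4. All 3 kits had the higher mean after IL-1β, with log2 fold changes of 0.74 (SE 0.46) in TruSeq, 3.19 (SE 1.26) in V4 and 1.18 (SE 0.90) in Pico, the groups overlapped in each, and none was called. The V4 value was called by DESeq2, at 3.27, and, at 4.22, without mouse I9583. With 20 reads added to each mean it was 1.19.

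Ptges2 encodes a second microsomal prostaglandin E synthase, which is present in the liver without a stimulus. The gene (ENSMUSG00000026820) lies on chr2:32251416-32258259 of mm9, on the plus strand, with 2025 bases of exon, no other gene overlapping it and no similar copy found. Its neighbour on the lower coordinate side, 8098 bases away on the minus strand, is Lcn2, an acute-phase gene that was called higher in all 3 kits. In TruSeq, Ptges2 had 652, 676 and 708 counts after IL-1β and 184, 173 and 193 after saline. Mice of a group lay close together and the groups far apart, at 54.8 ± 2.29 and 14.4 ± 0.763 CPM (SD, n = 3), a 3.81-fold difference (log2 1.93, SE 0.11). V4 gave 1260, 1510 and 1295 counts after IL-1β and 533, 703 and 658 after saline, a 2.16-fold difference (log2 1.11, SE 0.18). Both were called. In Pico the counts were 100, 79 and 113 against 73, 56 and 46. These ranges also did not overlap, but the log2 fold change of 0.77 (SE 0.26), 1.71-fold, was not called. It was called with TMM factors (0.90), by edgeR (0.90), by DESeq2 (0.89) and with genes of low counts left out (0.77).

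The 3 kits thus gave 3 sizes for Ptges2. The Pico value was 1.16 (SE 0.26) below TruSeq on the log2 scale and the V4 value 0.82 (SE 0.21) below it. The interaction of kit and treatment in limma-voom called 0 of 17207 genes for Pico against TruSeq, and for V4 against TruSeq 0 of 17147 (0.0% in each), with 945 and 1090 genes at an unadjusted p under 0.05. For the same 2 interactions edgeR called 0 genes and DESeq2 called 4 (0.0233%) and 72 (0.548%), and Ptges2 was the 1 member called by DESeq2 in either, with 95% intervals of −1.67 to −0.69 for Pico and −1.16 to −0.38 for V4. Kit disagreement was part of what was known when the set was chosen, so this too is a description. The levels behind these values were compared within each mouse. In the saline mice, Ptges2 stood 1.78 ± 0.24 log2 CPM higher in V4 than in TruSeq (SD over 3 mice), more than 98.2% of 8960 genes, while Pico and TruSeq differed by −0.04 ± 0.34. After IL-1β, V4 was 1.02 ± 0.15 higher than TruSeq and Pico was 1.16 ± 0.24 lower, where 2.52% of genes were lower still. The median gene was 0.37 to 0.46 lower in V4 than in TruSeq. V4 counts both strands together. The annotation has no gene on the other strand of Ptges2, but reads from that strand were not examined. Their part in the V4 level was not tested.

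**Figure D2:**
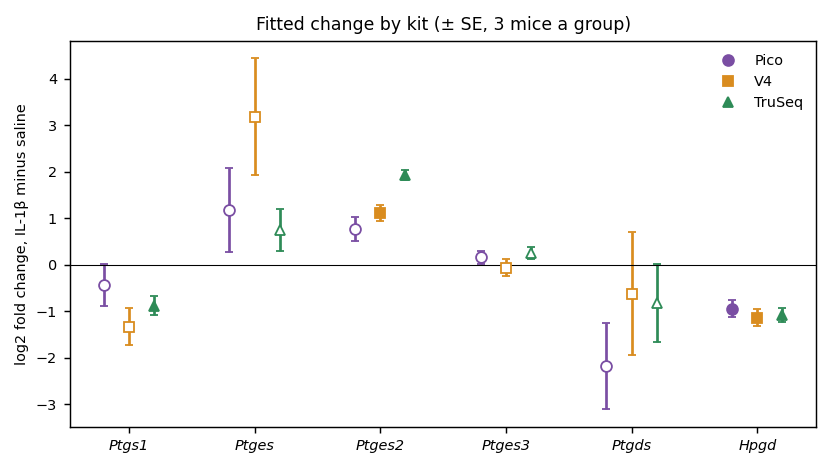
Fitted log2 fold change, IL-1β minus saline (y axis), of 6 members (x axis) in the 3 kits, with bars of ± 1 SE (3 mice a group) and filled symbols where the fit over all genes called the gene. Hpgd was at −0.94 to −1.14 in all kits, Ptges2 ran from 0.77 in Pico to 1.93 in TruSeq, and the values of Ptges and Ptgds have long bars, that of Ptgds in Pico resting on a group without reads.

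Ptges3 encodes p23, a co-chaperone of Hsp90 that also has prostaglandin E synthase activity in the cytosol. The gene (ENSMUSG00000071072) lies on chr10:127496010-127514328 of mm9, on the plus strand, shares 37 exon bases with Baz2a on the same strand, and its transcript aligned to 2 other loci, over as many as 1511 of 2000 bases and at up to 99.5% identity, so its counts are uncertain. Pico gave 316, 300 and 302 counts after IL-1β and 276, 296 and 264 after saline. These groups did not overlap, yet the log2 fold change was 0.16 (SE 0.14) and was not called. The counts in V4 were 685, 514 and 640 against 584, 647 and 683, and in TruSeq 837, 777 and 796 against 720, 802 and 575. Both pairs of groups overlapped and neither log2 fold change, −0.06 (SE 0.19) in V4 and 0.26 (SE 0.13) in TruSeq, was called. With TMM factors the V4 value turned to 0.11. The TruSeq value became 0.41 and was called, as it was by edgeR and DESeq2. The scaling thus changed the sign of Ptges3 in V4 and its call in TruSeq, while Pico stayed positive, at 0.29 with TMM factors.

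A list of 11 genes held Hsp90, its co-chaperones and the other chaperone genes Hspa8, Hspa1a, Hspa1b and Dnajb1. Of the list, Pico had 2 called higher and 2 lower, V4 had 0 and 1, and TruSeq 4 and 1. Of all genes, 6.78%, 3.6% and 12.3% were called higher and 10.8%, 7.41% and 21.8% lower in these kits. In the same order, Hsp90aa1 was at 0.29, 0.19 and 0.20 on the log2 scale, never called. Hsp90ab1 was at −0.28, −0.25 and −0.25 and called in Pico only. The median of the list was 0.29, 0.19 and 0.20 on the log2 scale, against −0.12, −0.22 and −0.17 over all genes. Fkbp4, a co-chaperone of steroid receptor complexes, was lower in all 3 kits. In TruSeq it had 925, 854 and 721 counts after IL-1β and 1815, 2513 and 2458 after saline, a log2 fold change of −1.39 (SE 0.14, adjusted p = 0.0001 in limma-voom). The values were −1.32 in Pico and −1.35 in V4.

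Ptgds encodes the lipocalin-type prostaglandin D synthase, known from brain and testis. The gene (ENSMUSG00000015090) lies on chr2:25322229-25325566 of mm9, on the minus strand. Pico had no count in the 3 IL-1β libraries and 5, 0 and 4 in the saline libraries. V4 gave 5, 3 and 0 counts against 9, 7 and 0, and TruSeq 3, 4 and 0 against 7, 2 and 2. No library had more than 9 counts and the groups overlapped in each kit. The means after saline were higher in all 3 kits, none of the differences was called, and the depth does not allow a statement on this gene. Without mouse U9575 the Pico difference was called.

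Hpgd encodes 15-hydroxyprostaglandin dehydrogenase, the first enzyme of prostaglandin breakdown. The gene (ENSMUSG00000031613) lies on chr8:58773349-58799843 of mm9, on the plus strand, with 1719 bases of exon and no similar copy found. In TruSeq it had 610, 652 and 464 counts after IL-1β and 1090, 1434 and 1226 after saline. The V4 libraries gave 629, 577 and 509 against 1159, 1447 and 1186, and Pico 211, 232 and 154 against 334, 409 and 414. No IL-1β library reached the lowest saline library of its kit, and mouse I9583 was the lowest in each kit. The levels were 46.4 ± 8.04 and 97.8 ± 13.1 CPM in TruSeq, 47.3 ± 4.75 and 104 ± 13.5 in V4, and 49.3 ± 10.1 and 93.8 ± 10.3 in Pico (SD, n = 3 in each group). The log2 fold changes were −1.08 (SE 0.15) in TruSeq, −1.14 (SE 0.18) in V4 and −0.94 (SE 0.17) in Pico, and each was called. With TMM factors they were −0.92, −0.97 and −0.81 in the same order. On library totals, the values of the 3 kits ranged from −1.20 to −0.77 when 1 mouse was left out. The difference in response from TruSeq was 0.14 (SE 0.24) for Pico and −0.05 (SE 0.23) for V4. In each mouse the level of this gene in Pico or V4 was within 0.17 log2 CPM of that in TruSeq.

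Per kilobase of exon, Hpgd had the highest level of the members after saline in every kit, at 54.5 ± 6.01 CPM per kb in Pico, with 60.5 ± 7.87 in V4 and 56.9 ± 7.64 in TruSeq. Ptges3 followed in Pico (30.5 ± 1.80) and TruSeq (24.7 ± 4.13). In V4 Ptges2 (25.6 ± 3.45) and Ptges3 (23.6 ± 1.56) followed and did not differ beyond their spread. After IL-1β the order changed. In TruSeq, Ptges3 (29.2 ± 1.04), Ptges2 (27.0 ± 1.13) and Hpgd (27.0 ± 4.68) lay close, the range of Hpgd taking in those of the other two, and in V4 Ptges2 came first, at 55.3 ± 5.71, ahead of Hpgd (27.5 ± 2.76) and Ptges3 (22.8 ± 3.22). In Pico, Ptges3 (34.2 ± 0.896) and Hpgd (28.7 ± 5.85) led, with Ptges2 at 11.9 ± 2.08. Ptgs1 stood at 1.06 to 2.66 CPM per kb in the group means, and Ptges, Ptgds and Ptgs2 below 1 in each.

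The 2 genes that moved apart can be set against each other within a library, where the library's total cancels. The ratio of Ptges2 to Hpgd per kb in TruSeq was 0.907, 0.880 and 1.30 in the IL-1β mice and 0.143, 0.102 and 0.134 in the saline mice. In V4 it was 1.70, 2.22 and 2.16 against 0.390, 0.412 and 0.471. Pico gave 0.402, 0.289 and 0.623 against 0.186, 0.116 and 0.0943. The ratio was higher in each IL-1β library than in every saline library of its kit, as the direction of both genes gives by itself, but Ptges2 exceeded Hpgd in all IL-1β libraries of V4, in 1 of TruSeq and in none of Pico.

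**Figure D3:**
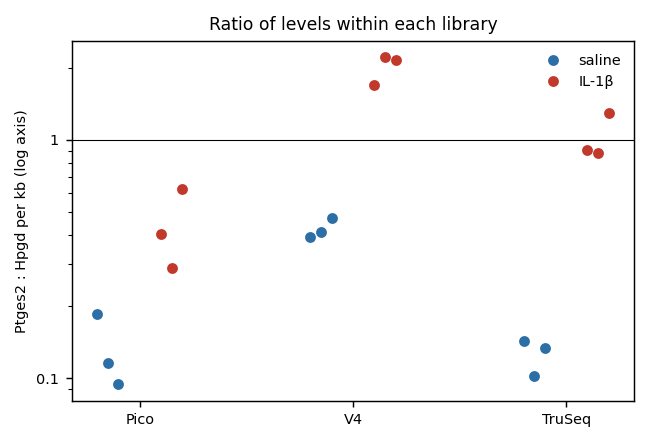
Ratio of Ptges2 to Hpgd counts per kb of exon (y axis, log scale) in each library, for saline and IL-1β mice of the 3 kits (x axis), with a line at equal levels. The points after IL-1β lie at 0.289 to 0.623 in Pico, 0.880 to 1.30 in TruSeq and 1.70 to 2.22 in V4, above those after saline in each kit.

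The other genes of the pathway were a list of 37, of which 35 were listed in TruSeq, 34 in V4 and 32 in Pico. The calls were 2 higher and 7 lower for Pico, 1 and 6 for V4, 4 and 11 for TruSeq. Over all genes, 6.78%, 3.6% and 12.3% were called higher and 10.8%, 7.41% and 21.8% lower, kits in that order. With TruSeq, 3555 of the 11529 genes that averaged 20 counts or more were called lower. The list's median log2 fold change was −0.54, −0.60 and −0.40, against −0.12, −0.22 and −0.17 over all genes. Of the list, 14, 16 and 17 genes averaged 20 counts or more for Pico, V4 and TruSeq. The medians therefore include genes with few reads, and no fall of the pathway is read from them.

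Genes listed under arachidonate release moved in both directions, and whether the product of each frees arachidonate in these livers was not tested. Pla2g12b, a gene of the liver, is listed by its secreted phospholipase A2 family and not by enzyme activity. No release of arachidonate is read from its values. The gene was called higher in all 3 kits, with 1027, 923 and 924 counts after IL-1β and 445, 425 and 469 after saline in TruSeq (log2 1.14, SE 0.10, adjusted p = 3.6e-05). Its log2 fold changes were 1.10 in Pico and 1.29 in V4. Pla2g12a rose in Pico (0.82, SE 0.27, adjusted p = 0.0412) and TruSeq (0.46, SE 0.12, adjusted p = 0.0127), and stood at 0.12 (SE 0.19) in V4. The Pico call was lost without I9582, I9583, U9574 or U9576. Pla2g6, a calcium-independent phospholipase A2, fell in V4 (−1.33) and TruSeq (−0.74), and the lysosomal Pla2g15 fell in the same kits (−2.49 and −1.68). In Pico, Pla2g6 stood at −0.56 (SE 0.22) and Pla2g15 at −0.91 (SE 0.40), and neither was called. In TruSeq, Pla2g15 had 61, 86 and 86 counts after IL-1β and 239, 297 and 231 after saline. Mgll, which frees arachidonate from its glycerol ester, fell in Pico (−0.78) and TruSeq (−0.69) and had −0.69 (adjusted p = 0.0511) in V4. Pla2g4a, the cytosolic phospholipase A2 that feeds cyclooxygenases and the annotated neighbour of Ptgs2 on its chromosome, was named after its values were seen. It had at most 21 counts in a library and was not called.

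Of 3 genes that return arachidonate to phospholipids, Lpcat3 fell in all 3 kits, with 353, 388 and 417 counts after IL-1β and 1174, 903 and 1229 after saline in TruSeq (log2 −1.46, SE 0.14, adjusted p = 5.8e-05). It was at −1.51 in Pico and −1.60 in V4. Cbr1, a carbonyl reductase that can turn prostaglandin E2 into F2α, fell in Pico (−1.20) and TruSeq (−1.23) and had −1.03 (adjusted p = 0.0628) in V4.

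Among 5 genes of breakdown and transport, the 3 called were the same in each kit and all lower. Of all genes, 10.8%, 7.41% and 21.8% were called lower in Pico, V4 and TruSeq. The kits share their mice, so the same call in each is not independent. Ptgr2, which reduces the keto products of Hpgd's enzyme, fell by 0.93 in TruSeq, 1.07 in V4 and 0.91 in Pico on the log2 scale. Zadh2, another prostaglandin reductase gene, had 597, 592 and 563 counts after IL-1β and 1317, 1404 and 1379 after saline in TruSeq (log2 −1.18, SE 0.09, adjusted p = 1.8e-05). It was at −1.15 in Pico and −1.26 in V4. Slco2a1, the prostaglandin uptake transporter, fell by 0.86 in TruSeq, 1.44 in V4 and 0.71 in Pico. Its TruSeq counts were 679, 533 and 480 after IL-1β and 1157, 1105 and 896 after saline. The Pico call of Slco2a1 was lost without mouse I9582 or I9583, or mouse U9574 or U9575. The summed endothelial markers given above were also lower after IL-1β, with Lyve1 among them higher. So were the Kupffer cell, stellate cell and hepatocyte sums. The part of these cells in the Slco2a1 values was not tested. Lta4h, of leukotriene synthesis, fell in Pico (−0.90) and TruSeq (−0.78) and stood at −0.46 in V4, and its Pico call was lost without I9582, I9583, U9574 or U9576.

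**Figure D4:**
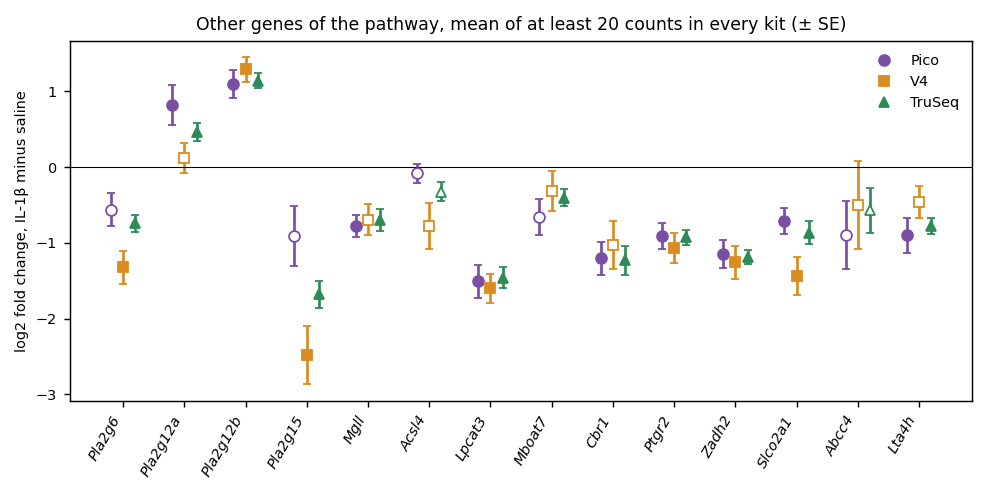
Log2 fold change, IL-1β minus saline (y axis, bars ± 1 SE), of the 14 other pathway genes that averaged 20 counts or more in all kits (x axis), with filled symbols where called. Pla2g12b stands near 1.1 to 1.3 in all kits and Lpcat3, Ptgr2, Zadh2 and Slco2a1 below 0 and called in all, while Pla2g15 (−2.49) and Pla2g6 (−1.33) had their lowest values in V4.

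Receptors gave few reads. Of 9, Ptgdr and Gpr44 were not listed in any kit and the others had means under 20 counts. Ptger4, a prostaglandin E2 receptor, was called higher in TruSeq with 8, 7 and 7 counts after IL-1β and 4, 3 and 1 after saline (log2 1.49, SE 0.48, adjusted p = 0.038), and lost that call in 8 of the other settings, those without mouse I9579, I9582 or I9583 or mouse U9575 or U9576 among them. Ptgir, the prostacyclin receptor gene, was called higher in TruSeq with 11, 5 and 4 counts against 1, 0 and 1 (log2 2.71, SE 0.62, adjusted p = 0.00771). Neither was called in Pico or V4. Ptger4 had 3, 1 and 8 counts after IL-1β and 9, 5 and 5 after saline in Pico (log2 −0.87, SE 0.80). In V4 its log2 fold change was 2.26 (SE 1.04). Ptgir had 5, 0 and 0 counts after IL-1β and no count after saline in Pico. In V4 it had no count after IL-1β and 1, 0 and 0 after saline, so no direction can be read in either kit. The limma-voom interaction of each kit with TruSeq called neither gene. Ptger1 had at most 33 counts in a library, Ptger2 37, Ptger3 12, Ptgfr 5 and Tbxa2r 30, and none of these was called. The neutrophil markers summed to 0.971 to 5.85 CPM after saline and 33.4 to 81.2 after IL-1β over the 3 kits, with S100a8, S100a9 and Cxcr2 called higher in each and Mpo not listed. Their part in the receptor counts was not tested.

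Other genes followed the members' course over the 18 libraries once each kit was centred on its own mean of log2(CPM + 1). The 3 most like Hpgd among the 8960 genes that averaged 20 counts or more in all kits were Fkbp4 (Pearson r = 0.982), Pgm2 (0.981) and Cd1d1 (0.979). For Ptges2 they were Plec (0.968), Ppp4c (0.964) and Spnb2 (0.939), for Ptgs1 Cd5l (0.931), Ptp4a2 (0.924) and Mgrn1 (0.921), and for Ptges3 Itm2c (0.818), Zc3h15 (0.778) and Ssr1 (0.756). Between members, Hpgd and Ptges2 had r = −0.906, Hpgd and Ptgs1 0.667, and Ptges2 and Ptgs1 −0.662. These correlations describe libraries that share 6 mice and the treatment, so a gene that differs between treatments correlates with any other that does.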

How the data were processed

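Libraries of liver RNA from 6 mice were prepared with 3 kits. The authors aligned reads to mm9 with GSNAP, removed ribosomal reads, resampled all libraries of a kit to equal depth with their PORT pipeline and deposited counts, in whole reads per gene, from the sense strand in Pico and TruSeq, and in V4 from both strands. The tables were normalized separately, and the labels do not say which of the study's repeated preparations the Pico table holds. Resampling discards depth, so low genes are less precise than in the full libraries.

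Each kit was fitted with limma-voom (limma 3.58.1, R 4.3.3) on library totals over all genes with at least 1 count, with Benjamini-Hochberg adjustment, and kit differences with an interaction over 12 libraries. Alternatives used edgeR 4.0.16 (quasi-likelihood), DESeq2 1.42.0, TMM factors, other filters and thresholds, thinning to 4024632 counts (median of 5 draws) and leaving out each mouse. Levels per kb used the exon length of the GENCODE annotation of mm9, copies were searched with BLAST 2.17.0 (at least 90% identity over 150 bases), and promoter windows came from RefSeq, which had 7 of 7 members. Depth per library was as given in the report, limits for a count of 0 cover counting error only, and the 95% intervals are 1.96 SE of the DESeq2 fit, which includes the spread between mice.

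The mouse number pairs the libraries, since RNA of each mouse entered each kit. Deviations from group means correlated at 0.194 to 0.446 for the same mouse between Pico and TruSeq and at 0.168 to 0.458 between V4 and TruSeq. For different mice the correlations were below 0. Deviations that sum to 0 within a group tend to give this once the same-mouse values are positive. In tests on simulated data, 200 genes that averaged 20 counts or more were changed, far fewer than were called in the real data. The fit recovered 43.5%, 1% and 76% of 2-fold changes for Pico, V4 and TruSeq, and 91.5%, 67.5% and 98.5% of 4-fold changes. Of the calls in these tests, 7.45%, 0% and 3.19% were false at 2-fold and 5.67%, 11.8% and 2.48% at 4-fold. The 0% of V4 rests on the few calls behind its 1% recovery, too few to judge a false share. With so few changed genes the adjusted cut is stricter, so the recovered shares are not those of the real fits. The members and lists were chosen with earlier results of these data known. The rule named the members, pathway genes called in the same direction in at least 2 kits, and the 3 genes most like each member. It also named receptors with a mean of at least 1 count and genes of the other lists called in all 3 kits. Of the acute-phase genes called in all 3 kits, only Lcn2 was named. Named outside this rule were Pla2g4a, Marco, Lyve1, Mpo, Ptgdr, Gpr44, Baz2a, Hsp90aa1, Hsp90ab1, Hspa8, Hspa1a, Hspa1b and Dnajb1. Ptgs2 in V4 and TruSeq and protein sequences were not analysed here.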

Additional observations from a re-analysis of the deposited data

How the results depend on the processing

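Hpgd kept its direction and its call in all 3 kits under each alternative, and Ptges2 did so in V4 and TruSeq. The members called in Pico were 2, in place of 1, by edgeR, by DESeq2, with TMM factors, with at least 10 counts in 3 libraries and at an adjusted p of at most 0.1, and those in V4 were 4, in place of 2, by DESeq2. By DESeq2, 1 member, Ptges2, was called in each interaction, in place of 0. The mouse as a replicate block changed no call of a member, with 0 members called in either interaction and −1.17 (Pico) and −0.82 (V4) for Ptges2, and the block called 1 gene in all. Over all genes, the calls numbered 3179 in Pico, 1986 in V4 and 6614 in TruSeq. They were 1937 and 1208 in Pico and V4 with no filter, 1884, 764 and 4081 in the 3 kits at an adjusted p of at most 0.01, and 2982 in V4 at 0.1. Pathway genes called in Pico were 9, and 5 with no filter. Leaving out 1 mouse gave 1 to 2 members called in Pico, 2 to 3 in V4, 2 to 3 in TruSeq and 0 in both interactions, 6 to 10, 7 to 8 and 14 to 16 pathway genes, and 1765 to 2603, 908 to 2093 and 5114 to 5606 genes in all. Signs turned for members near 0 or with few counts, and the cause was not tested. Ptges3 in V4 turned to 0.12 (edgeR and DESeq2) and 0.11 (TMM), and ranged from −0.14 to 0.061 without 1 mouse. Its interaction with Pico ranged from −0.16 to 0.0029. Ptgds ranged from −1.99 to 0.42 in V4, from −1.40 to 0.18 in TruSeq, and its interaction with V4 from −0.91 to 1.06, with −0.43 by edgeR, −0.35 by DESeq2 and −1.03 after thinning. The interaction of Ptges with Pico ranged from −0.75 to 1.44 and that of Hpgd with V4 from −0.12 to 0.035. Depth limits Ptgs2, Ptges, Ptgds and the receptors.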
